A study of Homo sapiens with 6 samples.

Results

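The genes described here are 35 targets of the hypoxia-inducible factors (HIF) that do not encode glycolytic enzymes, taken from a list of known HIF-induced genes and matched by symbol to 35 of the 60683 Ensembl genes of a human RNA sequencing table. The list names the genes and uses no measured value to pick them, but it was drawn up with earlier results of these data known. RNA was sequenced from the established clear cell kidney cancer line RCC4, whose VHL is inactive, as 3 parental samples (RCC4P, genotype Wild Type) and 3 samples with ATF4 knocked out (RCC4A, genotype ATF4 KO). ATF4 is a bZIP transcription factor of the integrated stress response, and the comparison addresses which transcripts differ when it is lost. Neither the clonality of the knockout nor the origin of the replicates in separate cultures is given in the labels, so differences between the cell populations other than ATF4 cannot be told apart from its loss, and p-values measure only the spread between these samples.

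HIF is a dimer of an oxygen-regulated alpha subunit, HIF1A (HIF-1 alpha) or EPAS1 (HIF-2 alpha), with ARNT. In oxygenated cells the EGLN prolyl hydroxylases mark the alpha subunits, and VHL directs their destruction. Without VHL, as in most clear cell renal carcinomas, the alpha subunits persist and their targets are transcribed at normal oxygen. Besides glycolysis, HIF targets remove or remodel mitochondria, hydroxylate and cross-link collagen, demethylate histones, store glycogen and signal to other cells. Some targets respond mainly to HIF-1 and others mainly to HIF-2, and the preference differs between cell types.

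Library totals ranged from 41002611 to 46755358 counts. ATF4 itself had 10413, 11037 and 10219 counts in parental libraries, against 8628, 10386 and 9895 in knockout libraries (edgeR log2 fold change -0.19, p_adj = 3.19e-07). The median log2 fold change of tested genes within 10 Mb of ATF4, on chromosome 22, was -0.27, below the value of ATF4 itself, and counts per gene do not show whether its coding sequence was altered. The renal carcinoma markers PAX8, PAX2, VIM, CA9, EPAS1, NNMT, KRT8 and KRT18 were all above the expression filter, at a summed 6291 to 6632 CPM (a gene's count relative to its library total, after TMM scaling) in parental and 6608 to 6822 CPM in knockout samples. Most of that sum was VIM, at 4808 ± 163 CPM in parental and 5166 ± 111 CPM in knockout samples, and of the 8 markers 2 were called higher (VIM and CA9) and 4 lower (PAX8, EPAS1, NNMT and KRT18). The immune markers PTPRC, CD3E and CD68 summed to 0.0475 to 0.115 CPM in parental and 0.0430 to 0.211 CPM in knockout samples, with CD3E at 0 counts in every library. The endothelial markers PECAM1, CDH5, VWF and KDR summed to 0.0237 to 0.182 CPM and 0.0846 to 0.172 CPM. All 12 cell cycle markers were called higher in the knockout samples, and their mean log2 CPM, centred gene by gene, was -0.45, -0.49 and -0.19 in parental libraries against 0.39, 0.38 and 0.37 in knockout libraries, with parental replicate 3 apart from the other two. The part of cell cycle state in the changes below was not tested, and in bulk RNA fewer expressing cells and less RNA per cell cannot be told apart.

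HIF targets beyond glycolysis were mostly expressed at higher levels in ATF4 knockout compared to parental RCC4 cells, by small amounts. Of the 35 genes 34 passed the filter on low counts, and 22 of these were called higher (64.7%) and 1 lower (2.94%) by edgeR at an adjusted p below 0.05, while 11 were not called. Over all 15321 tested genes 21.2% were called higher and 20.8% lower, 42.0% in all. Counts of calls in each smaller group of genes below are to be read against these shares. The median log2 fold change was 0.16 over the tested members and 0.01 over all tested genes. Of the 34 tested members 22 had every knockout sample above every parental sample and 4 had every knockout sample below, compared with 25.3% and 24.3% of all tested genes. The rises were small: 3 of the 22 reached 1.5-fold, and 12 lay under 1.2-fold. Of the 22 calls 17 held under all 14 alternative settings and 5 (AK4, WSB1, KDM4C, ZNF395 and LOXL2) were lost under at least 1.

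**Figure D1:**
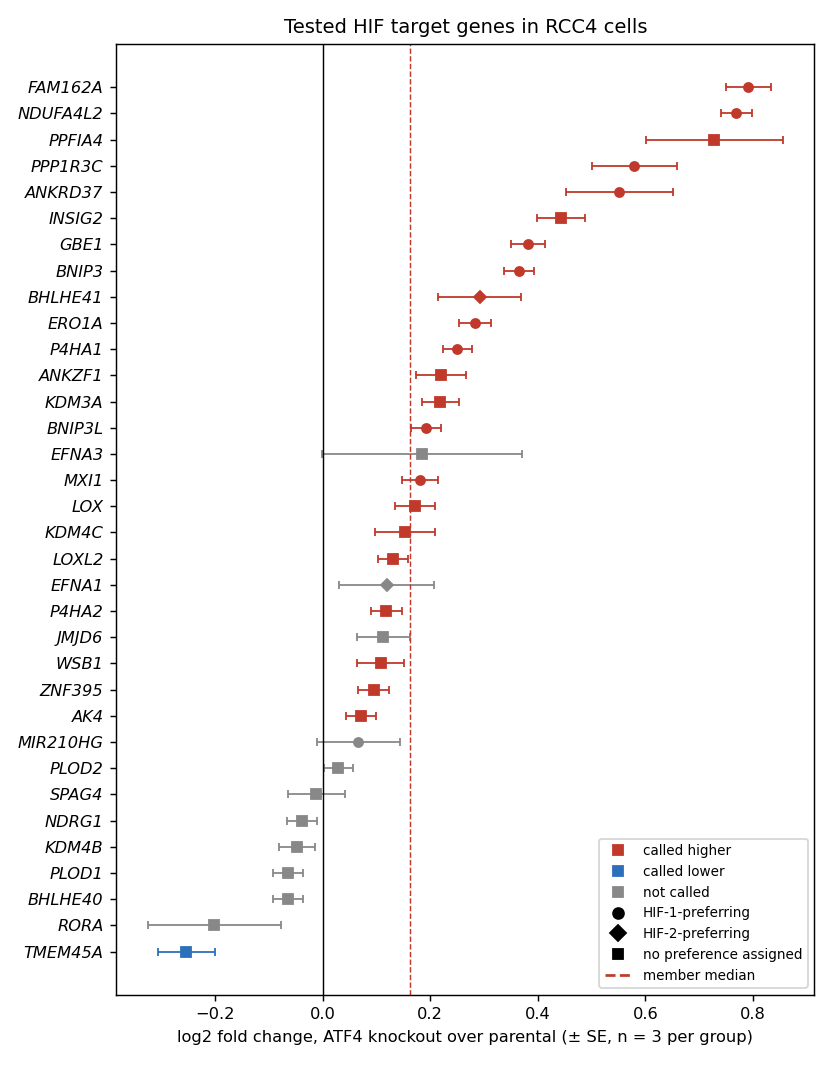
Log2 fold change (x axis, knockout relative to parental cells, 3 samples each) of the 34 tested members, with bars at the SE. Red marks called higher, blue called lower and grey not called, and marker shape gives the assigned HIF preference. FAM162A lies highest at 0.79 and TMEM45A lowest at -0.25, and the dashed line marks the member median of 0.16.

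Letters of the HIF motif were common before the starts of the members. HIF binds the letters ACGTG or GCGTG within hypoxia response elements, so the 250 bases before the RefSeq gene start (GRCh38.p14) were searched on both strands for these letters. A promoter was found for 27 of the 35 members in the RefSeq table; NDRG1, BNIP3L, LOXL2, NDUFA4L2, ANKZF1, ZNF395, SPAG4 and JMJD6 had no entry. ACGTG occurred in 17 of the 27 (63.0%), compared with 18.5% of 35116 promoters in the table and 22.9% of the 10957 promoters of tested genes. ACGTG or GCGTG occurred in 24 of the 27 (88.9%), compared with 43.2% of all promoters. Within the members, ACGTG was present in 13 of 17 promoters of genes called higher and in 4 of 10 of the others, and across tested genes it was present in 24.2% of promoters of genes called higher, 21.6% of those called lower and 22.9% of those not called. CACGTG, which holds ACGTG on both strands and is also the E-box of MYC and of BHLHE40, occurred in 9 of the 27 (33.3%) and in 6.34% of all promoters. The composite element bound by ATF4 was searched as TGATGNAA on both strands. It occurred in 0 of the 27, in 1.68% of promoters of tested genes and in 3.14% of all promoters. With shares this low, 27 promoters are too few for 0 matches to show a lack of the element. The members were chosen as known HIF targets, so the share of these letters describes the list, and a match is not a binding site.

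The windows below are those of the called members with a log2 fold change of at least 0.3 that have an ACGTG match before both the RefSeq and the GENCODE gene start. They show the letters in their context, 5′ to 3′ on the strand of the gene, with ACGTG, its reverse complement CACGT or the palindrome CACGTG in capitals. The first capital lies 84 bases before the RefSeq start in FAM162A (chr3:122384076-122384124, plus strand), 119 in PPFIA4 (chr1:203026350-203026399, plus strand), 45 in PPP1R3C (chr10:91633089-91633138, minus strand, the nearest of 3), 174 in INSIG2 (chr2:118088354-118088402, plus strand) and 134 in BNIP3 (chr10:131982030-131982079, minus strand).
FAM162A: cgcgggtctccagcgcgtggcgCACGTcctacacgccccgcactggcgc
PPFIA4: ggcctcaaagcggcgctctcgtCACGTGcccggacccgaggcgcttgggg
PPP1R3C: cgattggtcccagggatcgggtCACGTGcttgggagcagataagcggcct
INSIG2: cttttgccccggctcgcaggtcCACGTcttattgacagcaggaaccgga
BNIP3: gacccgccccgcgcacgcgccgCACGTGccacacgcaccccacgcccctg

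Members that act on mitochondria were all called higher (5 of 5, median log2 fold change 0.36). The share of counts from the mitochondrial genome was 2.17, 2.29 and 2.79% in parental libraries against 1.67, 1.38 and 1.75% in knockout libraries, with no overlap, and its part in these changes was not tested. FAM162A, a mitochondrial protein linked to hypoxic cell death (ENSG00000114023, chromosome 3, 122384176 to 122412334, plus strand, GRCh38), was at 41.3, 45.1 and 42.2 CPM in the parental samples and at 73.3, 75.0 and 74.3 CPM in the knockout samples. Every knockout sample lay above every parental one, and FAM162A rose 1.73-fold (log2 fold change 0.79, SE 0.042, edgeR p_adj = 4.84e-23). NDUFA4L2, a mitochondrial protein that restrains respiration in hypoxia (ENSG00000185633, chromosome 12, 57234903 to 57240715, minus strand), was at 274, 287 and 267 CPM in parental and 465, 479 and 468 CPM in knockout samples. This was the smallest adjusted p among the members (log2 fold change 0.77, SE 0.028, p_adj = 7.07e-30). Its paralog NDUFA4, a subunit associated with cytochrome c oxidase, was at 108 ± 4.00 CPM in parental and 111 ± 1.08 CPM in knockout samples (SD, n = 3) and was not called. Per kilobase of exon, NDUFA4L2 mRNA exceeded NDUFA4 mRNA by 3.26, 3.47 and 3.01 times in parental libraries and by 5.33, 5.39 and 5.34 times in knockout libraries. That ratio was higher in every knockout sample (exact two-sided permutation p = 0.1, the smallest that 3 against 3 samples allow). The pair was chosen after its values were seen.

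The mitophagy receptors BNIP3 and BNIP3L, which tether mitochondria to autophagosomes, rose together by different amounts. BNIP3 (ENSG00000176171, chromosome 10, 131966455 to 131982013, minus strand) was at 247, 251 and 255 CPM in parental and 322, 327 and 321 CPM in knockout samples, a rise of 1.29-fold (log2 fold change 0.36, SE 0.028, p_adj = 1.32e-16). BNIP3L was at 220 ± 1.17 CPM in parental and 251 ± 0.642 CPM in knockout samples, a log2 fold change of 0.19 (SE 0.028, p_adj = 5.61e-08). Replicates of both genes lay close together, and the groups did not overlap. AK4, an adenylate kinase of the mitochondrial matrix, had the smallest called rise of all members (log2 fold change 0.07, SE 0.028, p_adj = 0.0370), and its groups overlapped at 285 to 294 CPM against 293 to 309 CPM. AK4 was not called without parental replicate 2 or 3 or without knockout replicate 1 or 3 (p_adj from 0.103 to 0.186). It was also not called by DESeq2 (p_adj = 0.0725) or when the median change of genes within 10 Mb was removed (log2 fold change 0.01, p_adj = 0.883). BNIP3 and AK4 have processed copies elsewhere in the genome, so reads that fit several copies may be missing from their counts, and the copy AK4P1 itself had 153 to 163 counts in each library.

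**Figure D2:**
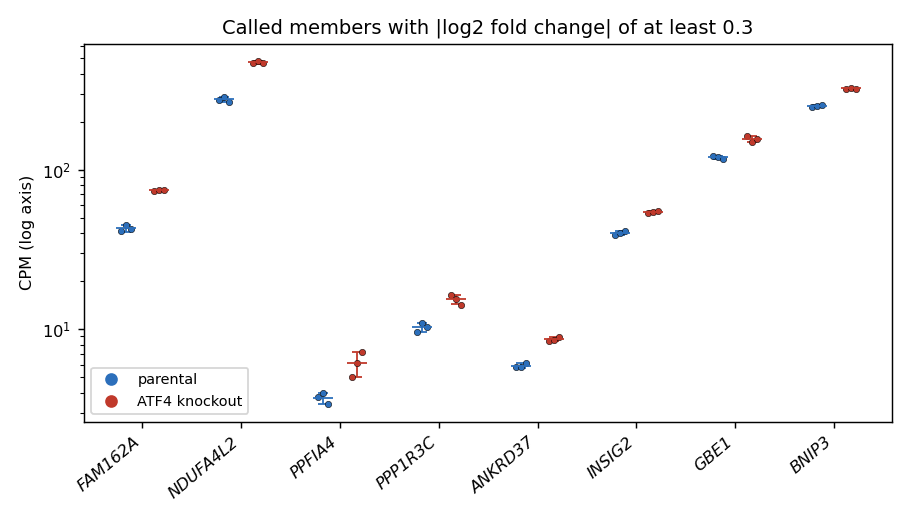
Expression in CPM (log axis) in each of the 6 libraries of the 8 called members with a log2 fold change of at least 0.3 in size, with blue points for parental and red for ATF4 knockout cells, a horizontal line for the mean and error bars for the SD of 3 samples. In all 8 the knockout points lie above the parental points, and PPFIA4 shows the widest spread, from 4.98 to 7.17 CPM in the knockout samples.

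Members of glycogen, sterol and endoplasmic reticulum metabolism were also all called higher (4 of 4, median log2 fold change 0.41). PPP1R3C, a scaffold that brings protein phosphatase to glycogen (ENSG00000119938, chromosome 10, 91628442 to 91633054, minus strand), was at 9.61, 10.9 and 10.4 CPM in parental and 16.4, 15.5 and 14.3 CPM in knockout samples, a rise of 1.49-fold (SE 0.079 on the log2 scale, p_adj = 1.84e-08). GBE1, the glycogen branching enzyme (ENSG00000114480, chromosome 3, 81489699 to 81762161), was at 121, 120 and 117 CPM in parental and 162, 149 and 156 CPM in knockout samples, a rise of 1.30-fold (p_adj = 3.26e-15). Both genes of glycogen synthesis therefore had separated groups. INSIG2, which retains the sterol sensor SCAP in the endoplasmic reticulum (ENSG00000125629, chromosome 2, 118088452 to 118110997), was at 38.9, 39.9 and 41.4 CPM in parental and 53.7, 54.4 and 55.3 CPM in knockout samples, a rise of 1.36-fold (p_adj = 2.56e-12). ERO1A, the oxidase that drives disulfide formation, rose from 146 ± 2.98 to 178 ± 3.59 CPM (log2 fold change 0.28, p_adj = 9.23e-12). Its paralog ERO1B was called in the opposite direction, at 12.5 ± 0.134 CPM in parental and 10.7 ± 0.727 CPM in knockout cells (log2 fold change -0.22, p_adj = 0.0237). The ratio of ERO1A to ERO1B per kilobase of exon was 8.31, 8.08 and 8.58 in parental libraries. It was 10.7, 12.8 and 12.0 in knockout libraries, higher in all 3 (exact two-sided permutation p = 0.1, again the smallest possible). Both genes already separated the groups, in opposite directions, so that p-value was fixed and adds nothing. Likewise the glycogen scaffolds PPP1R3B and PPP1R3D, which were not among the 35 genes, fell by 0.19 and 0.41 on the log2 scale, with medians of 0.02 and -0.19 for genes within 10 Mb.

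Of the 6 members that modify collagen 4 were called higher and 0 lower (median log2 fold change 0.12). P4HA1, a catalytic subunit of collagen prolyl hydroxylase (ENSG00000122884, chromosome 10, 73007217 to 73096974), was at 260, 259 and 259 CPM in parental and 310, 306 and 310 CPM in knockout samples (log2 fold change 0.25, SE 0.027, p_adj = 3.32e-11). P4HA2, the alternative catalytic subunit, rose by 0.12 (p_adj = 0.000507), from 204 ± 3.92 to 222 ± 3.46 CPM. The lysyl oxidases LOX and LOXL2, which cross-link collagen, had log2 fold changes of 0.17 and 0.13 (p_adj = 0.000171 and 0.000138). LOXL2 was the member with the highest level per length in parental cells, at 185 CPM per kilobase of exon, and it was not called once the neighbouring median had been subtracted (log2 fold change 0.04, p_adj = 0.302). The lysyl hydroxylase PLOD2 was at 521 ± 4.40 CPM in parental and 531 ± 4.67 CPM in knockout samples, and PLOD1 at 266 ± 3.60 and 254 ± 5.33 CPM, and neither was called (p_adj = 0.416 and 0.0574). PLOD1 was called lower without parental replicate 3 (p_adj = 0.0499) or knockout replicate 1 (p_adj = 0.0346) and by DESeq2 (p_adj = 0.0420). Among family genes outside the list, LOXL4 was called lower (log2 fold change -0.50), LOXL1 higher (0.14), and PLOD3 was not called (0.02).

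The JmjC oxygenases, which use oxygen to remove histone methyl groups or hydroxylate lysine, were called higher in 2 of 4 cases. KDM3A was at 81.0, 78.1 and 77.0 CPM in parental and 90.3, 92.7 and 91.7 CPM in knockout samples (log2 fold change 0.22, SE 0.035, p_adj = 6.49e-07), while its paralog KDM3B lay at -0.01 and was not called. KDM4C had a log2 fold change of 0.15 (p_adj = 0.0238), which was lost without parental replicate 1 or 2 or knockout replicate 1 or 2 (p_adj from 0.0573 to 0.148), by DESeq2 (p_adj = 0.0849) and when the neighbouring median was removed (p_adj = 0.824). KDM4B (log2 fold change -0.05) and JMJD6 (0.11) were not called (p_adj = 0.256 and 0.0622). JMJD6 was called with scaling by total counts (p_adj = 0.0206). KDM4B was called lower when the neighbouring median was removed (log2 fold change -0.08, p_adj = 0.0486).

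Transcriptional regulators divided, with 3 of 5 called higher. BHLHE41, a bHLH repressor of the circadian system (ENSG00000123095, chromosome 12, 26120026 to 26125127), was at 11.4, 13.3 and 13.0 CPM in parental and 15.3, 14.5 and 16.3 CPM in knockout samples (log2 fold change 0.29, SE 0.076, p_adj = 0.00142). It shares 162 exonic bases with SSPN on the opposite strand, which fell by 0.72 on the log2 scale. The related repressor BHLHE40 was at 438, 441 and 430 CPM in parental and 404, 423 and 426 CPM in knockout samples. Every knockout sample of BHLHE40 lay below every parental one, but the gene missed the threshold (log2 fold change -0.06, SE 0.028, p_adj = 0.0552). It was called lower by DESeq2 (p_adj = 0.0259), without parental replicate 3 (p_adj = 0.0418) and without knockout replicate 3 (p_adj = 0.0347). MXI1, an antagonist of MYC, rose from 87.2 ± 0.516 to 98.9 ± 0.472 CPM (log2 fold change 0.18, p_adj = 9.86e-06). ZNF395 had a log2 fold change of 0.09 (p_adj = 0.00528), which was lost without parental replicate 3 (p_adj = 0.0767) or with the neighbouring median removed (p_adj = 0.804), and 2032 of its exonic bases are shared with FBXO16 on the same strand. The nuclear receptor RORA was low, at 4.55, 4.64 and 4.70 CPM in parental and 3.87, 3.98 and 4.23 CPM in knockout samples, and was not called (log2 fold change -0.20, SE 0.12, p_adj = 0.197).

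Of the 4 tested signalling and surface genes 1 was called higher and 1 lower. PPFIA4, a liprin scaffold (ENSG00000143847, chromosome 1, 203026498 to 203078740), was at 3.75, 3.96 and 3.37 CPM in parental and 4.98, 6.15 and 7.17 CPM in knockout samples, a rise of 1.66-fold (log2 fold change 0.73, SE 0.13, p_adj = 4.03e-06). TMEM45A, a transmembrane protein (ENSG00000181458, chromosome 3, 100492619 to 100577444), was the single member called lower. It was at 35.8, 36.3 and 37.3 CPM in parental and 33.1, 28.8 and 29.9 CPM in knockout samples, a log2 fold change of -0.25 (SE 0.053, p_adj = 7.15e-05), although the median of tested genes within 10 Mb was 0.09. The ephrins EFNA1 and EFNA3, ligands of Eph receptors, had overlapping groups and were not called, with log2 fold changes of 0.12 (SE 0.089) and 0.18 (SE 0.19). The chemokine receptor CXCR4 was not tested: it had 1 count in parental replicate 1, 1 count in knockout replicate 2 and 0 in the other 4 libraries, where 3 counts would be 0.0642 to 0.0732 CPM (counting error only).

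Among the remaining hypoxia marker genes 3 of 6 were called higher. ANKRD37, an ankyrin repeat protein (ENSG00000186352, chromosome 4, 185396021 to 185400628), was at 5.77, 5.80 and 6.15 CPM in parental and 8.41, 8.60 and 8.94 CPM in knockout samples, a rise of 1.47-fold (log2 fold change 0.55, SE 0.099, p_adj = 6.92e-06). It shares 909 exonic bases with UFSP2 on the opposite strand, and UFSP2 rose by 0.18. ANKZF1, which acts in ribosome quality control, rose from 37.8 ± 0.696 to 44.0 ± 0.812 CPM (log2 fold change 0.22, p_adj = 9.82e-05). WSB1, a substrate receptor of a ubiquitin ligase, was called at 0.11 (p_adj = 0.0396) with overlapping groups, and the call was lost without parental replicate 1 or 2 or knockout replicate 2 or 3 (p_adj from 0.0520 to 0.405), by DESeq2 and limma-voom, and with the neighbouring median removed (p_adj = 0.135, 0.0563 and 0.563). NDRG1, a widely used marker of hypoxia and one of the most abundant members, was at 637, 672 and 645 CPM in parental and 643, 632 and 627 CPM in knockout samples. Its groups overlapped, and it was not called (log2 fold change -0.04, SE 0.028, p_adj = 0.277).

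SPAG4, a nuclear envelope protein on chromosome 20, and MIR210HG, the host transcript of the hypoxic microRNA miR-210 on chromosome 11, lie where most neighbouring genes were lower. The median log2 fold change of tested genes within 10 Mb was -0.17 around SPAG4 and -0.19 around MIR210HG. SPAG4 was at 28.9 ± 1.10 CPM in parental and 28.6 ± 0.923 CPM in knockout samples, and MIR210HG at 12.8 ± 0.912 and 13.4 ± 0.532 CPM, and neither was called (p_adj = 0.889 and 0.531). With the neighbouring median removed both were called higher, with log2 fold changes of 0.16 (p_adj = 0.0142) and 0.26 (p_adj = 0.00636). That fit leaves out the error of the median, and these p-values are therefore too small. In the same fit 19 members were called higher and 4 lower, the latter being TMEM45A, PLOD1, BHLHE40 and KDM4B. The other 32 tested members lay in regions with a median above -0.1, and 27 of the 34 lay above the median of their own region.

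HIF-1-preferring members were nearly all called higher, and targets assigned to HIF-2 went in both directions once genes outside the list were included. The difference between these groups was not tested. The assignment rests on general knowledge, but it was made with earlier results of these data known. Of the 11 HIF-1-preferring members (BNIP3, BNIP3L, ANKRD37, ERO1A, FAM162A, MXI1, P4HA1, NDUFA4L2, MIR210HG, GBE1 and PPP1R3C) 10 were called higher and 0 lower, with a median log2 fold change of 0.36. MIR210HG was the exception. Only 3 members were assigned to HIF-2, namely BHLHE41, EFNA1 and CXCR4, and 7 further HIF-2-preferring targets from outside the list were therefore set beside them. Of these 10 genes 8 were tested, with 3 called higher, 2 lower and a median of 0.08 (0.038 without knockout replicate 2 and 0.0094 with the neighbouring median removed). Among the members alone, BHLHE41 and EFNA1 were tested, with 1 called higher, 0 lower and a median of 0.21. The genes called lower, CCND1 and VEGFA, lie outside the list. The 21 members with no assigned preference had 11 called higher and 1 lower, with a median of 0.11. Outside the list, the HIF-1 targets CA9, a carbonic anhydrase, and PDK1, a kinase that inhibits pyruvate dehydrogenase, had log2 fold changes of 2.55 and 0.20 (p_adj = 4.85e-45 and 9.94e-06). CA9 and PDK1 are not part of the HIF-1 median of 0.36. For comparison, 17 of 20 glycolysis genes were called higher and 0 lower, with a median of 0.20.

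The HIF-2-preferring targets outside the list went in both directions. IGFBP3, which binds insulin-like growth factors, was at 717 ± 9.66 CPM in parental and 1325 ± 23.9 CPM in knockout samples (log2 fold change 0.89, SE 0.028, p_adj = 4.44e-33). Cyclin D1 (CCND1), which drives entry into the cell cycle, and the angiogenic factor VEGFA were called lower, with log2 fold changes of -1.10 and -0.28 and medians of -0.14 and -0.07 for genes within 10 Mb. The growth factor TGFA and the lipid droplet protein PLIN2 were not called, with log2 fold changes of -0.04 and 0.05 (p_adj = 0.307 and 0.177). EPO had 1 count in 1 library and was not tested. The mean log2 score of the tested HIF-2-preferring genes was -0.03, -0.02 and 0.02 in parental libraries against -0.02, 0.03 and 0.02 in knockout libraries, with overlapping groups. The score of the HIF-1-preferring members was -0.22, -0.17 and -0.20 in parental libraries and 0.20 in each knockout library, with no overlap. These scores describe the samples, and no test was made on them.

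**Figure D3:**
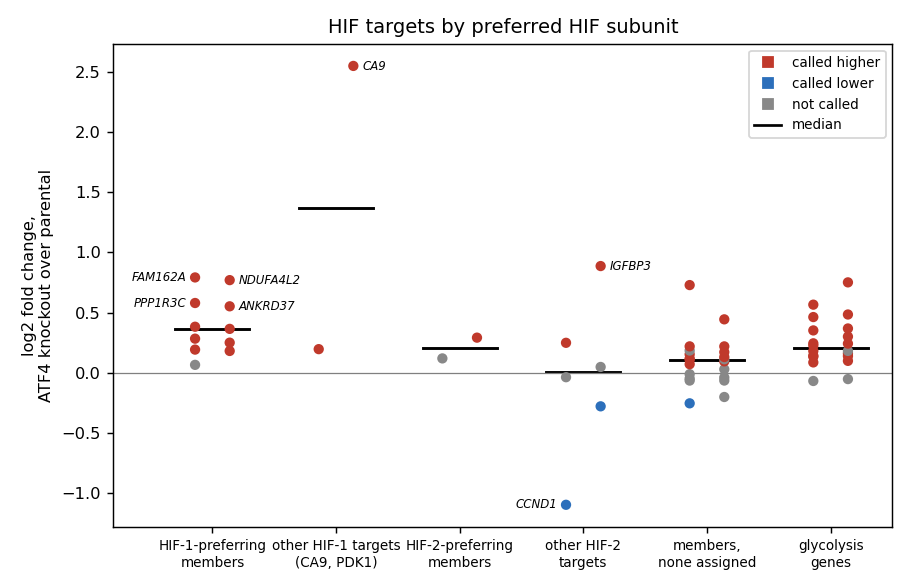
Log2 fold change (y axis, knockout relative to parental cells, 3 samples each) of tested HIF targets grouped by the HIF preference assigned to them. Glycolysis genes are shown for comparison. Black bars lie at the median, with red for called higher, blue for called lower and grey for not called. The 11 HIF-1-preferring members all lie above 0 with a median of 0.36, while the other HIF-2 targets span -1.10 (CCND1) to 0.89 (IGFBP3).

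The transcripts of the HIF alpha subunits changed in opposite directions. HIF1A was at 130, 128 and 131 CPM in parental and 156, 154 and 163 CPM in knockout samples (log2 fold change 0.28, SE 0.030, p_adj = 2.29e-11), and EPAS1 at 186, 179 and 183 CPM in parental and 131 CPM in each knockout sample (log2 fold change -0.48, SE 0.029, p_adj = 3.07e-20). Per kilobase of exon the ratio of HIF1A to EPAS1 mRNA was 0.992, 1.01 and 1.02 in parental libraries. It was 1.68, 1.68 and 1.76 in knockout libraries (exact two-sided permutation p = 0.1, the smallest possible). Both genes already separated the groups, in opposite directions, so this outcome was fixed and the p-value adds nothing. In the list of 17 oxygen-sensing genes 16 were tested, with 7 called higher, 5 lower and a median of 0.03. Over all tested genes 21.2% were called higher and 20.8% lower. The prolyl hydroxylases EGLN1 and EGLN3, themselves HIF targets, rose by 0.44 and 0.21 on the log2 scale. ARNT2, a partner of the alpha subunits, and CITED2, an inhibitor of HIF transactivation, fell by 0.34 and 0.33. Levels of mRNA do not give HIF protein, and whether the alpha subunit transcripts bear on their targets was not tested.

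Of the 33 genes related to members by family but not listed as HIF targets 28 were tested. Among them 6 were called higher, 8 lower and 14 not called, and their median log2 fold change was 0.01. Over all tested genes 21.2% were called higher and 20.8% lower, with a median of 0.01. The counts are therefore not read as a result about the family genes. Beside the pairs given above, WSB2 fell by 0.15 and PPFIA1 by 0.15 on the log2 scale (neighbouring medians -0.06 and -0.14), the adenylate kinase AK3 was not called (log2 fold change 0.00), and INSIG1 rose by 0.20, which was less than INSIG2 at 0.44. NDRG4 was called higher beside a member that was not called, at 0.948 ± 0.316 CPM in parental and 2.37 ± 0.369 CPM in knockout samples (log2 fold change 1.32), against -0.04 for NDRG1. In the same family NDRG3, on chromosome 20, fell by 0.25, with a neighbouring median of -0.17.

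**Figure D4:**
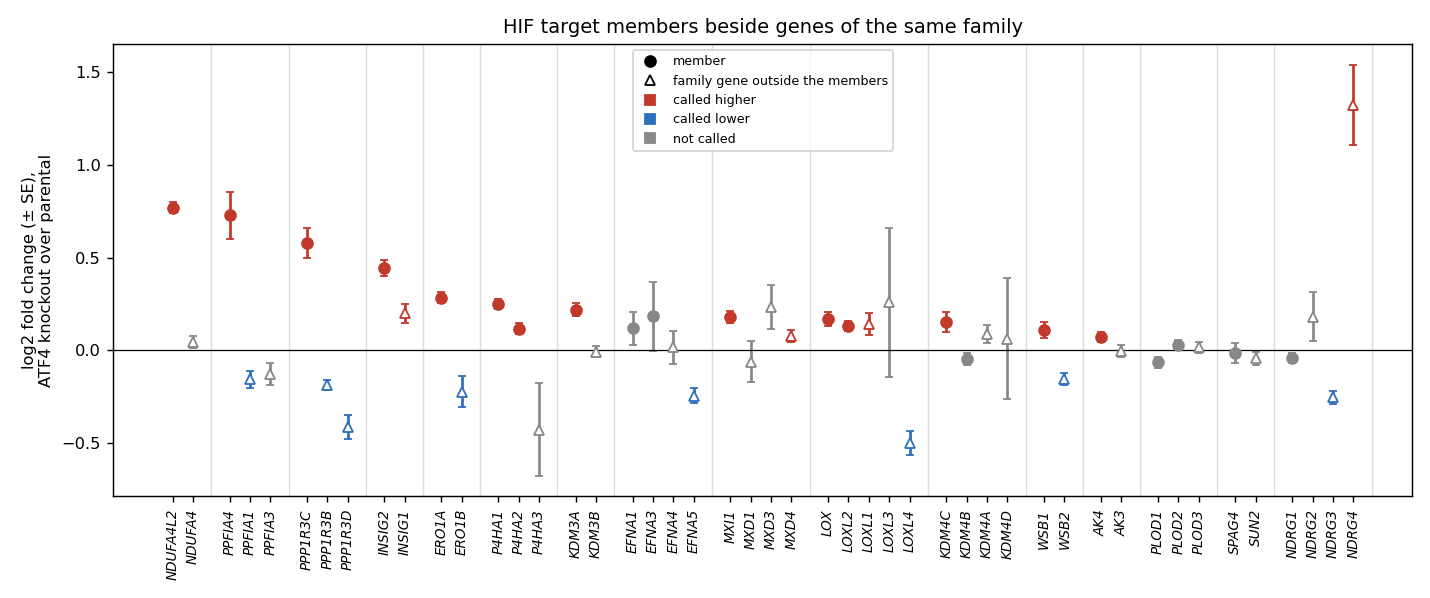
Log2 fold change with SE (y axis, knockout relative to parental cells, 3 samples each) of members (filled circles) beside genes of the same family outside the list (open triangles), with red for called higher, blue for called lower and grey for not called. NDUFA4L2, PPFIA4 and PPP1R3C lie at 0.58 or above while their family genes lie between -0.41 and 0.05, and NDRG4 lies at 1.32 beside NDRG1 at -0.04.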

How the data were processed

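Raw read counts for each Ensembl gene were deposited for 6 RCC4 libraries, prepared by a TruSeq stranded mRNA protocol. Per the submitters' processing notes, the authors used bcl2fastq 2.20, cutadapt, STAR and HTSeq with GRCh38; which annotation release and strand setting were used was not given in the sources used here, so genes that overlap on either strand and genes with near-identical copies are uncertain. Groups came from the genotype labels. Symbols came from a gene name table (60370 of 60683 identifiers) and GENCODE 29 (289 more), which also gave coordinates and exon lengths.

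Genes passing edgeR's filterByExpr (15321) were compared in R 4.3.3 with edgeR 4.0.16 (TMM scaling, robust quasi-likelihood F test, no covariate), with Benjamini-Hochberg adjustment over all tested genes and calls at adjusted p below 0.05. CPM values are TMM-scaled with SD over 3 samples. The SE of a log2 fold change is its absolute value divided by the square root of the F statistic. Alternatives were DESeq2 1.42.0, limma-voom (limma 3.58.1), other scalings and filters, a replicate block, removal of the median log2 fold change of tested genes within 10 Mb, and leaving out each sample. Expression in every sample is given for called members with a log2 fold change of at least 0.3 in size and for members not tested, and for other members that were chosen after their values were seen. The members, lists and HIF preferences were chosen with earlier results of these data known, and the expression ratios between genes after the data were seen. No 2 libraries were identical: replicates differed by 3.59 to 5.80 times sampling noise and groups by 37.9 to 44.1 times (chi-square per degree of freedom). Some genes of the comparison and marker lists are not reported here by name; counts and medians over those lists include them.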

Additional observations from a re-analysis of the deposited data

How the results depend on the processing

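The count of members called higher, 22, stayed between 19 and 23 under all 14 alternatives (19 to 20 without 1 sample), but the count called lower, 1, was 3 with DESeq2, RLE size factors, the strict filter or the replicate block, 2 with limma-voom, 4 with the regional median removed and 1 to 3 without 1 sample. The calls added by DESeq2, by the replicate block and by removing the regional median included PLOD1 and BHLHE40 (adjusted p 0.0574 and 0.0552 in the edgeR fit as reported), and the regional median also added KDM4B (0.256). With scaling by total counts the medians were 0.19 over the members, 0.39 over HIF-1-preferring members and 0.11 over HIF-2-preferring genes, and with the regional median removed they were 0.14, 0.27 and 0.0094. Without 1 sample the HIF-2-preferring median ranged from 0.038 to 0.11. Signs turned for genes near 0: PLOD2 was at -0.028 and PLIN2 at -0.019 with the regional median removed, and SPAG4 was at 0.16 there, at 0.015 with scaling by total counts, and between -0.035 and 0.019 without 1 sample, above 0 without parental replicate 2 or knockout replicate 1. The causes were not tested. With the replicate number as a block the median of the tested members was 0.16 and 22 were called higher; deviations from the group means correlated at -0.0137, 0.0322 and -0.00559 for samples of the same number, so the numbers do not pair the samples. Calls under about 0.1 on the log2 scale rest on SEs near 0.03 from 3 samples per group, and counts for CXCR4 and EPO are too few to show a change.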
